A study of Mus musculus with 52 samples.

Results

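The comparison described here set 6 male APP/E4 mice on normal diet against 6 male APP/E3 mice on normal diet, 12 of the 52 libraries of the series. The members were the libraries labelled as male and as fed normal diet (ND), and genotype gave the 2 groups. Frontal cortex RNA was sequenced with 1 library per animal. All 12 mice carried the APP/PS1ΔE9 transgenes, which give amyloid plaques, and came from crosses with targeted replacement lines in which human APOE stands at the mouse Apoe locus. APP/E4 mice were APOE4+/+ and APP/E3 mice were APOE3+/+, so both groups carry the same amyloid transgenes and no mouse without them or with mouse Apoe entered the comparison. Both groups were on Prolab Isopro RMH 3000 chow over a 3 month feeding period that began at 3.5 months of age on average, and the labels give a mean age of 14.7 months at behavioural testing. No label states how old each mouse was when its tissue was taken. The rest of the series is formed by 14 ND females, 11 males and 15 females on a Western high-fat diet (HFD, 40% of calories from fat).

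APOE is the main lipid carrier of the brain, made mostly by astrocytes and by activated microglia, and APOE4 is the strongest common genetic risk factor for late-onset Alzheimer disease. Around plaques, microglia switch on genes such as Trem2, Tyrobp, Cst7, Clec7a and Itgax, and astrocytes become reactive and raise Gfap and Serpina3n. Hccs and the Y-linked genes named later belong to the sex chromosomes, where most X-linked genes of one X are silenced in females and a few Y-linked genes keep an X-linked partner.

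Total counts lay between 5343347 and 13128299 in 11 of the 12 ND males and at 39388340 in APP/E3 ND male 5. Levels are given as CPM, the counts of a gene scaled by the total of its library (counts-per-million). A count of 3 corresponded to between 0.0762 and 0.561 CPM. The cortical excitatory neuron gene Slc17a7 had a median of 1297 CPM in APP/E4 and 1656 CPM in APP/E3, and the microglial gene Tmem119 of 28.4 CPM in APP/E4 and 32.0 CPM in APP/E3, so cortical markers were present in both groups. Xist was at most at 1.31 CPM in APP/E4 and at 0.484 CPM in APP/E3 in every ND male, the level of the labelled sex, against at least 461 CPM in ND females. Transcripts of neighbouring tissue were uneven: the 18 striatal marker genes summed to between 1738 and 3995 CPM in APP/E4, against 2781 to 3669 CPM in APP/E3 ND males 1, 5 and 6 and 454 to 917 CPM in APP/E3 ND males 2, 3 and 4. Counts of mouse genes do not separate human APOE from mouse Apoe, so they do not check the genotype labels. Replicate numbers follow accession order and pair no animals. Since a tissue piece was sequenced, fewer cells of a type and less RNA per cell cannot be told apart.

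Of 15195 genes tested, 61 (0.401%) were called between APP/E4 and APP/E3 ND males by edgeR's quasi-likelihood test at a Benjamini-Hochberg adjusted p under 0.05. They comprised 29 genes higher in APP/E4 (0.191% of those tested) and 32 lower (0.211%). Their median absolute log2 difference was 0.96, and 30 of them differed by more than 1 on the log2 scale, 14 higher and 16 lower. At an unadjusted p under 0.05 there were 1666 genes. On the scaled log2 values, the 6 APP/E4 and the 6 APP/E3 libraries did not overlap for 37 of the 61 called genes, against 167 of all genes tested (1.1%), 76 with APP/E4 higher (0.5%) and 91 with APP/E4 lower (0.599%). The 61 calls fell into 3 sets. When each of the 12 libraries was left out in turn, 27 calls held every time. Another 12 calls were transcripts of olfactory epithelium, highest in APP/E3 ND male 3 and next highest in APP/E3 ND male 5. The other 22 calls ended without at least 1 library. Without APP/E3 ND male 3 the count was 31, all of them among the 61, and without APP/E4 ND male 6 it was 105, of which 58 were among the 61.

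The call with the smallest p was Hccs, an X-linked gene for holocytochrome c synthase, the mitochondrial enzyme that joins heme to cytochrome c. It stood at 65.5, 57.2, 64.5, 59.7, 51.5 and 60.5 CPM in the APP/E4 ND males 1 to 6, against 29.4, 25.4, 22.7, 22.9, 29.8 and 28.2 CPM in the APP/E3 ND males 1 to 6. Every APP/E4 library lay above every APP/E3 library, and the gap was wider than the range within each group. The means were 59.8 ± 5.12 CPM in APP/E4 and 26.4 ± 3.19 CPM in APP/E3 (SD, n = 6 each), a ratio of 2.27 and a log2 difference of 1.14 ± 0.08 (SE), with an edgeR adjusted p of 3.5e-14. The call held without each library, where the largest adjusted p was 5.7e-13.

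The tested genes nearest to Hccs on the X chromosome were not called. Msl3, a chromatin gene, had medians of 19.4 CPM in APP/E4 and 19.7 CPM in APP/E3, with a log2 difference of -0.01 ± 0.09. Arhgap6, a GTPase activator gene, had medians of 15.1 CPM in APP/E4 and 14.2 CPM in APP/E3, at 0.44 ± 0.41. Frmpd4 was at 0.05 ± 0.12. Mid1, a ubiquitin ligase gene near the pseudoautosomal boundary, had medians of 16.2 CPM in APP/E4 and 12.2 CPM in APP/E3 and did not pass (0.83 ± 0.31, edgeR adjusted p = 0.303). Annotated transcripts of Hccs and Arhgap6 overlap: 24.5% of the 50-base words in GENCODE M21 transcripts of Hccs also occur in Arhgap6, so part of their reads can be split between the pair.

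All 4 Y-linked genes that were tested rose in APP/E4 ND males, with ratios of means between 1.98 for Kdm5d and 2.19 for Uty, beside 2.27 for Hccs. Ddx3y encodes a DEAD-box RNA helicase, Eif2s3y a subunit of the translation initiation factor eIF2, Kdm5d a histone H3 lysine demethylase and Uty a relative of the X-linked demethylase Kdm6a. Ddx3y stood at 170.0, 147, 152, 162, 160 and 132 CPM in APP/E4 ND males 1 to 6, against 74.9, 59.0, 74.6, 70.5, 77.6 and 68.7 CPM in APP/E3 ND males 1 to 6. Its means were 154 ± 13.2 CPM in APP/E4 and 70.9 ± 6.65 CPM in APP/E3 (SD, n = 6 each), a ratio of 2.17. The groups did not overlap.

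Eif2s3y stood at 61.1, 50.3, 79.7, 65.8, 53.3 and 60.3 CPM in APP/E4, against 30.0, 32.5, 30.8, 28.9, 26.6 and 23.6 CPM in APP/E3. Kdm5d averaged 39.6 ± 6.32 CPM in APP/E4 and 20.0 ± 2.46 CPM in APP/E3, and Uty 38.7 ± 4.38 CPM in APP/E4 and 17.7 ± 2.47 CPM in APP/E3 (SD, n = 6 each). For each of these genes the lowest APP/E4 library was above the highest APP/E3 library. The log2 differences were 1.09 ± 0.16 for Ddx3y, 1.08 ± 0.14 for Eif2s3y, 0.96 ± 0.14 for Kdm5d and 1.11 ± 0.18 for Uty, with edgeR adjusted p of 1.4e-05, 4.2e-07, 2.1e-05 and 1.6e-04, and the 4 calls held without each library. When only the 4 ND males whose titles carry a sex letter were compared, 2 against 2, in a fit to all libraries, Ddx3y did not pass (1.04 ± 0.28, edgeR adjusted p = 0.121).

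The X-linked partners of these genes were not called. Ddx3x had medians of 284 CPM in APP/E4 and 281 CPM in APP/E3, Eif2s3x of 14.6 CPM in APP/E4 and 13.2 CPM in APP/E3, Kdm5c of 69.5 CPM in APP/E4 and 62.8 CPM in APP/E3, and Kdm6a of 36.9 CPM in APP/E4 and 32.0 CPM in APP/E3. Their log2 differences lay between 0.02 for Ddx3x and 0.15 for Eif2s3x, and none passed. At 50 bases Ddx3y shared 2 of 5202 words with Ddx3x, and Eif2s3y shared none with another annotated gene.

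The 11 HFD males entered the ND comparison only through the shared scaling and spread estimates of the fit, and edgeR called the same 5 genes higher in APP/E4 there. Hccs averaged 56.5 CPM in APP/E4 HFD males and 28.9 CPM in APP/E3 HFD males, a log2 difference of 0.96 ± 0.09 (edgeR adjusted p = 4.9e-11). Ddx3y averaged 151 CPM in APP/E4 HFD males and 72.3 CPM in APP/E3 HFD males (1.06), and edgeR called it. Eif2s3y averaged 63.3 CPM in APP/E4 HFD males and 23.6 CPM in APP/E3 HFD males (1.42), Kdm5d 41.2 CPM in APP/E4 and 19.1 CPM in APP/E3 (1.10) and Uty 39.5 CPM in APP/E4 and 19.2 CPM in APP/E3 (1.04), and each was called. Over both diets the 11 APP/E4 males lay between 50.4 and 65.5 CPM of Hccs and the 12 APP/E3 males between 22.7 and 30.2 CPM.

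In females Hccs was not called. It averaged 29.1 CPM in APP/E4 ND females and 27.6 CPM in APP/E3 ND females, a log2 difference of 0.08 ± 0.08. Its APOE difference in ND males exceeded that in ND females by 1.06 ± 0.11 on the log2 scale (edgeR adjusted p = 3.5e-08), and Hccs was the single gene of 15195 called for that difference (0.00658%). The difference between ND and HFD males was 0.18 ± 0.12 and was not called (edgeR adjusted p = 0.850). The Y-linked genes have next to no reads in females, so the difference between males and females could not be assessed for them.

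**Figure D1:**
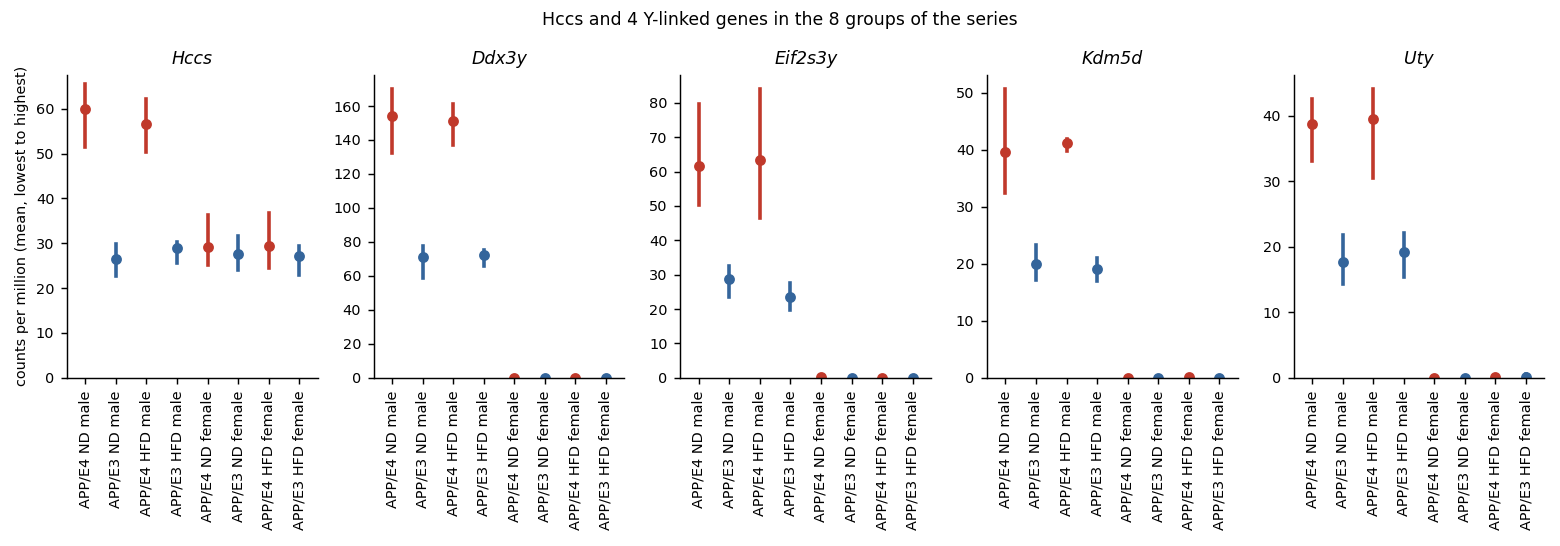
Levels in CPM (vertical axes from 0) of Hccs and of 4 Y-linked genes in the 8 groups of the series, with red for APP/E4 and blue for APP/E3, the point at the group mean and the bar from the lowest to the highest library. In males of both diets every APP/E4 library lies above every APP/E3 library at all 5 genes, while the means of Hccs in females are between 27.2 and 29.4 CPM in both genotypes.

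The start regions of Hccs and Eif2s3y are printed because these genes moved together. The windows run from 250 bases before to 50 bases after the annotated start, 5′ to 3′ on the gene's strand, and come from RefSeq on GRCm38.p6. Capitals mark 4 letter patterns searched on both strands. The GC box was searched as GGGCGG and the TATA box as TATAAA. For the CCAAT box its name gives the letters, and the STAT-type inverted repeat was searched as TTCNNNGAA. No pattern overlaps another in the windows printed. Among 32841 windows of the same length, 35.7% held a GC box, 37.4% a CCAAT box, 13.6% a TATA box and 8.30% the inverted repeat.
Hccs, chrX:169320323-169320622, minus strand: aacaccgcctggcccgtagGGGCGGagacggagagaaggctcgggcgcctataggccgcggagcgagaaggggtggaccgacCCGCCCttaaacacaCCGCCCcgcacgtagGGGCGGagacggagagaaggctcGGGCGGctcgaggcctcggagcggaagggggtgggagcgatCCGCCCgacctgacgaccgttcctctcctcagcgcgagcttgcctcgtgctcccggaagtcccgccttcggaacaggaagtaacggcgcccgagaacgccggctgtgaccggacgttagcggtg
Eif2s3y, chrY:1010345-1010644, plus strand: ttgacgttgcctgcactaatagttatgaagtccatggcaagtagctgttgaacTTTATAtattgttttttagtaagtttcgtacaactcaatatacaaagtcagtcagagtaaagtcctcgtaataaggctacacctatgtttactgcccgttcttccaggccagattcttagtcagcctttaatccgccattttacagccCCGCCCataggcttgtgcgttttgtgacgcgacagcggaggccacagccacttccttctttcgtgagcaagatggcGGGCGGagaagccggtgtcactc
The Hccs window held 6 GC boxes and the Eif2s3y window 2 GC boxes and 1 TATA box. The windows of Ddx3y, Kdm5d and Uty held no GC box, so this letter pattern was not shared by all 5 genes.

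The Serpina3 cluster on chromosome 12 encodes secreted serine protease inhibitors, relatives of human alpha-1-antichymotrypsin. Of its 11 listed genes 4 were tested, and 3 of these rose in APP/E4 ND males while Serpina3g did not pass. Serpina3h, Serpina3m and Serpina3n follow each other with no other tested gene between them. RefSeq annotates Serpina3h as a transcribed pseudogene. Serpina3n, a gene of reactive astrocytes, stood at 109.8, 108, 93.0, 80.7, 73.7 and 107 CPM in APP/E4 ND males 1 to 6, against 16.4, 16.5, 29.5, 22.1, 20.996 and 14.7 CPM in APP/E3 ND males 1 to 6. Every APP/E4 library lay above every APP/E3 library. The means were 95.4 ± 15.5 CPM in APP/E4 and 20.0 ± 5.46 CPM in APP/E3 (SD, n = 6 each), a log2 difference of 2.24 ± 0.25 (edgeR adjusted p = 3.1e-08).

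Serpina3m lay between 3.03 and 3.86 CPM in the APP/E4 libraries, with 182 counts in all, against 1 count over the 6 APP/E3 libraries. The ratio of the pooled CPM was 294, with a 95% interval from 52.2 to 11690 that covers counting error only. Serpina3h lay between 1.45 and 2.85 CPM in APP/E4, with 113 counts, and between 0 and 0.152 CPM in APP/E3, with 4 counts. Serpina3g lay between 0.367 and 1.16 CPM in APP/E4 and between 0 and 0.482 CPM in APP/E3 (1.79 ± 0.59, edgeR adjusted p = 0.223). Serpina3m and Serpina3h were thus near absent in APP/E3 ND males and present in all 6 APP/E4 ND males. Of the 50-base words in their annotated transcripts, 19.1% for Serpina3m, 21.9% for Serpina3h and 6.90% for Serpina3n also occur in another gene, so reads can be split between these paralogs.

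The Serpina3n start region is printed as the gene with the highest level of the cluster, and that of Ptprh because its window held one of the letter patterns searched.
Serpina3n, chr12:104406458-104406757, plus strand: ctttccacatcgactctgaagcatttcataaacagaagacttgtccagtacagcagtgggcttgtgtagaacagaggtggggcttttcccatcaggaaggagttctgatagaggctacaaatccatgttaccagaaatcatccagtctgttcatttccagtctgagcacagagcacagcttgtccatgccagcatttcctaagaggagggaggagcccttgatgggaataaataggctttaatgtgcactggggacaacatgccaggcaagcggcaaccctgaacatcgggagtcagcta
Ptprh, chr7:4603992-4604291, minus strand: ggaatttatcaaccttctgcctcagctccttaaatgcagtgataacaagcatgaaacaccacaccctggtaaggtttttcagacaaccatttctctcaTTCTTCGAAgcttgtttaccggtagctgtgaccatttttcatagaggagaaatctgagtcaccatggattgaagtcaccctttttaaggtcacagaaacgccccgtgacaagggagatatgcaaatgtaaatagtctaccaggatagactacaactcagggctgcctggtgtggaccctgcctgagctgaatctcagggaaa
The Serpina3n window held none of the 4 patterns. The Ptprh window held 1 inverted repeat of the STAT type.

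Chromosome 7 carried 14 of the 61 called genes among 1143 tested there, 7 higher and 7 lower, beside 0.401% called over all genes. Of these 14 calls, 7 held without APP/E3 ND male 3 (5 higher, and Rdh13 and Fank1 lower), 8 without APP/E4 ND male 1 or 4 and 9 without APP/E4 ND male 5. Ptprh, a receptor-type tyrosine phosphatase gene, stood at 3.28, 2.51, 2.20, 4.36, 3.56 and 3.21 CPM in APP/E4, against 0.229, 0, 0.167, 0.0968, 0.305 and 0.227 CPM in APP/E3. Eps8l1, an adapter of actin signalling, averaged 5.06 ± 1.79 CPM in APP/E4 and 0.348 ± 0.159 CPM in APP/E3, and Oscar, a collagen receptor of immune cells, 1.19 ± 0.43 CPM in APP/E4 and 0.0734 ± 0.0621 CPM in APP/E3 (SD, n = 6 each). No APP/E3 library reached the lowest APP/E4 library at any of these genes. Their log2 differences were 3.89 ± 0.35, 3.89 ± 0.45 and 3.43 ± 0.44 (edgeR adjusted p = 2.3e-11, 4.0e-08 and 7.5e-07). Rdh13, a mitochondrial retinol dehydrogenase gene, and the long noncoding RNA D630041G03Rik lie beside Eps8l1 with no other tested gene between the 3. Rdh13 fell to 25.7 ± 2.48 CPM in APP/E4, against 37.0 ± 2.98 CPM in APP/E3 (-0.56 ± 0.10), while D630041G03Rik, whose groups overlapped, rose to 3.64 ± 1.53 CPM in APP/E4, against 1.23 ± 0.18 CPM in APP/E3 (1.53 ± 0.27, SD and n = 6 each for the CPM). The direction therefore differed within the run.

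Fyn, on chromosome 10, encodes a Src family kinase of neurons and oligodendrocytes that phosphorylates NMDA receptors and is linked to amyloid and tau. It stood at 128, 137, 143, 117, 122 and 145 CPM in APP/E4 ND males 1 to 6, against 72.6, 90.9, 69.0, 71.2, 83.2 and 69.3 CPM in APP/E3 ND males 1 to 6. The groups did not overlap, with means of 132 ± 11.6 CPM in APP/E4 and 76.0 ± 8.97 CPM in APP/E3 (SD, n = 6 each). The log2 difference was 0.76 ± 0.10 (edgeR adjusted p = 9.5e-07).

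Further genes rose in a way that held without each library. Mfn2, which fuses mitochondrial outer membranes, averaged 308.5 ± 13.2 CPM in APP/E4 and 255 ± 18.7 CPM in APP/E3 (0.24 ± 0.05). Aim2, a sensor of cytosolic DNA, averaged 2.99 ± 0.81 CPM in APP/E4 and 1.23 ± 0.20 CPM in APP/E3 (1.28 ± 0.27). Ncl, which encodes nucleolin of the nucleolus, averaged 332 ± 17.6 CPM in APP/E4 and 264 ± 26.0 CPM in APP/E3 (0.30 ± 0.06, all SD with n = 6 each). Spty2d1 (0.41 ± 0.09) and the low gene A530016L24Rik on chromosome 12 (2.63 ± 0.47) were called higher as well. The edgeR adjusted p of these 5 genes lay between 8.6e-04 for A530016L24Rik and 0.00953 for Ncl and Spty2d1. They were named after their values were seen, as the calls that held without each library.

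**Figure D2:**
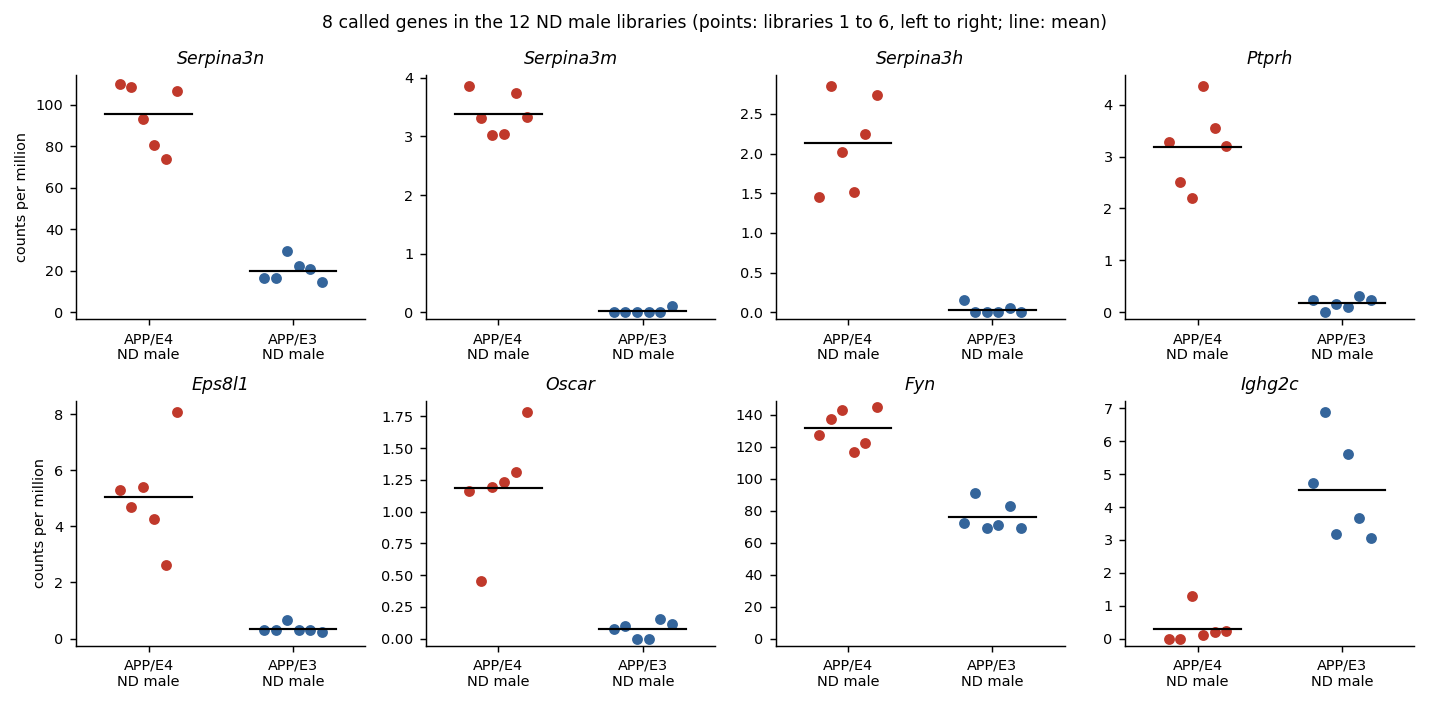
CPM (vertical axes, 0 included) of 8 called genes in the 12 ND male libraries, APP/E4 in red on the left and APP/E3 in blue on the right of each panel, with libraries 1 to 6 from left to right in a group and a line at the group mean. In every panel the 2 groups are separated, with Ighg2c lower in APP/E4 and the other 7 genes higher.

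Among the genes that fell, Ighg2c had the smallest p of those with a named function. It is the constant region gene of the heavy chain of antibody class IgG2c, at one end of chromosome 12. It stood at 0, 0, 1.28, 0.0948, 0.187 and 0.238 CPM in APP/E4 ND males 1 to 6, against 4.72, 6.89, 3.17, 5.61, 3.68 and 3.07 CPM in APP/E3 ND males 1 to 6. The counts were 18 in APP/E4 and 381 in APP/E3, with a log2 difference of -3.79 ± 0.46 (edgeR adjusted p = 1.5e-07), and 5.49% of its 50-base words also occur in Ighg2b. Ighm, the constant region of IgM, had medians of 18.9 CPM in APP/E4 and 32.1 CPM in APP/E3 without overlap and did not pass (-0.84 ± 0.23, edgeR adjusted p = 0.105). The predicted gene Gm20186 had 1 count in APP/E4 and 229 counts in APP/E3, where all 6 libraries lay between 2.17 and 3.18 CPM. Its ratio of APP/E3 to APP/E4 was 142, with a 95% counting interval from 25.2 to 5618, and 77.2% of its words occur in Gm26809.

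Genes at higher levels fell by smaller amounts. R3hdm4 on chromosome 10 lay between 202 and 232 CPM in APP/E4 and between 262 and 339 CPM in APP/E3 (-0.45 ± 0.07, edgeR adjusted p = 2.1e-04). Pon2, a paraoxonase of chromosome 6, averaged 42.6 ± 8.52 CPM in APP/E4 and 61.9 ± 8.501 CPM in APP/E3 (-0.56 ± 0.10), and here APP/E4 ND males 4 and 6 reached into the range of APP/E3. Dctd, a dCMP deaminase of nucleotide synthesis, averaged 3.13 ± 0.86 CPM in APP/E4 and 5.87 ± 0.43 CPM in APP/E3 (-0.95 ± 0.19). Inpp5k, a phosphoinositide phosphatase, averaged 39.7 ± 1.41 CPM in APP/E4 and 47.6 ± 4.19 CPM in APP/E3 (-0.29 ± 0.06, all SD with n = 6 each). Fank1 (-1.02 ± 0.19) and Umad1 (-0.35 ± 0.07) completed the 9 lower calls that held without each library.

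A separate set of 12 lower calls consisted of transcripts of olfactory epithelium, a tissue of the nose that is no part of the cortex. The list was put together after the values were seen. A broader list of olfactory bulb and epithelium genes, which shares Omp with it, had 13 of 15 genes higher, a median of 0.38 and 0 called, with a median of 0.07 without APP/E4 ND male 3. The olfactory epithelium list holds enzymes that clear odorants in olfactory epithelium (Cyp2a5, Cyp2g1, Cyp2f2, Ugt2a1, Cbr2), proteins of olfactory sensory neurons (the channel subunit Cnga2, the receptor transporter Rtp1, Gfy), and Umodl1, Sec14l3, Bpifb4 and Gramd1c. Cyp2a5 stood at 0.869, 1.48, 1.01, 0.569, 0.936 and 1.31 CPM in APP/E4 ND males 1 to 6, against 0.838, 0.394, 372, 0.194, 15.4 and 1.25 CPM in APP/E3 ND males 1 to 6. Bpifb4 stood at 221 CPM in APP/E3 ND male 3, at 1.35 CPM in APP/E3 ND male 5 and at most at 0.197 CPM in the other APP/E3 libraries, and at most at 0.367 CPM in APP/E4. At Cyp2a5 these 2 APP/E3 libraries were high and the other 10 ND male libraries were low. Omp, the marker protein of olfactory sensory neurons, did not pass (-2.20 ± 1.17, edgeR adjusted p = 0.491) but was at 278 CPM in APP/E3 ND male 3.

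Summed over the 13 listed genes, Omp included, the level was between 4.68 and 43.7 CPM in APP/E4, against 1666.9 CPM in APP/E3 ND male 3, 134 CPM in APP/E3 ND male 5 and 5.79 to 7.26 CPM in the other 4 APP/E3 ND males. Without APP/E3 ND male 3, edgeR called none of the 12 genes, of which Ugt2a1, Bpifb4 and Gfy no longer passed the filter on low counts. Cyp2a5 had an adjusted p of 0.542, Cyp2g1 of 0.404, Cyp2f2 of 0.336, Sec14l3 of 0.362 and Umodl1 of 0.218. Without APP/E3 ND males 3 and 5 together, Cyp2a5 and Cyp2g1 changed sign, to 0.58 ± 1.29 and 0.70 ± 1.84. A run of 3 neighbouring calls on chromosome 7, Cyp2g1, Cyp2a5 and Cyp2f2, belongs to this set.

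**Figure D3:**
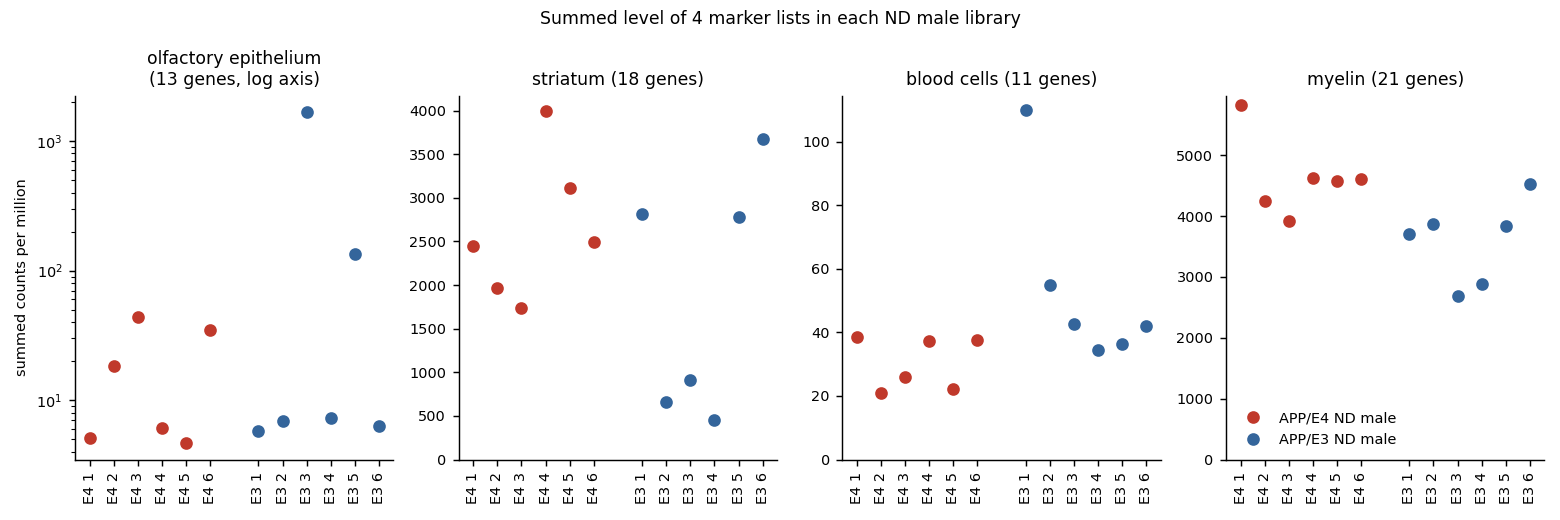
Summed CPM of 4 marker lists in each of the 12 ND male libraries, APP/E4 in red on the left and APP/E3 in blue on the right of each panel (log axis for olfactory epithelium, linear axes from 0 for the others). APP/E3 ND males 3 and 5 stand apart in olfactory epithelium transcripts, APP/E3 ND males 2, 3 and 4 are low in striatal transcripts and APP/E3 ND male 1 is high in blood cell transcripts.

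The remaining 22 calls, 11 higher and 11 lower, ended without at least 1 of the 12 libraries (from 1 library to 10 libraries per gene, where the largest edgeR adjusted p lay between 0.0555 and 0.227). All of them but Fbxo5 (1.35 ± 0.30) and Rpl28 (-1.02 ± 0.25) differed by less than 0.7 on the log2 scale. Higher were Fbxo5, an inhibitor of the anaphase-promoting complex, Adar, the RNA editing enzyme, the mitochondrial protease gene Yme1l1, the phosphatase gene Inpp5f, Rab14, Bex2, Tspyl4, Cacul1, Wdr60, Msantd4 and 2310057M21Rik. Adar averaged 278 ± 11.6 CPM in APP/E4 and 225 ± 12.1 CPM in APP/E3 (SD, n = 6 each), and its call ended without APP/E3 ND male 3. Lower were the lysosomal GTPase gene Arl8a, the pyruvate dehydrogenase kinase gene Pdk2, the SNARE gene Vti1a, Faim2, Hn1, Ldhd, Tsr2, Eefsec, Fam149b, 9030617O03Rik and Rpl28. Rpl28, a ribosomal protein gene whose reads can be shared with pseudogenes, lay between 1.12 and 2.97 CPM in APP/E4 and between 3.05 and 6.49 CPM in APP/E3, and its call ended without any 1 of 10 libraries (edgeR adjusted p up to 0.219).

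Apoe, App, Prnp and the microglial genes that plaques induce were not called. Apoe stood at 17.5, 15.1, 18.7, 17.5, 14.4 and 25.0 CPM in APP/E4, against 20.9, 25.8, 19.5, 17.4, 18.4 and 19.7 CPM in APP/E3 (-0.20 ± 0.11, edgeR adjusted p = 0.508). Human APOE stands at this locus in both groups, so these reads assigned to the mouse gene do not measure the level of human APOE. App averaged 4206 ± 265 CPM in APP/E4 and 4051 ± 301 CPM in APP/E3, and Prnp, whose promoter drives the APP/PS1ΔE9 transgenes, 2748 ± 247 CPM in APP/E4 and 2960 ± 662 CPM in APP/E3 (SD, n = 6 each). The groups overlapped at each of these genes. Whether reads of the transgenes were counted at App or Prnp was not tested, so these levels need not be those of the mouse genes alone.

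Trem2, the lipid receptor of microglia, stood at 16.8, 15.4, 11.2, 14.9, 15.0 and 22.8 CPM in APP/E4, against 12.95, 21.3, 15.2, 16.3, 16.6 and 15.1 CPM in APP/E3. Its log2 difference was -0.05 ± 0.15, and that of its adapter Tyrobp -0.17 ± 0.16. Cst7, a cystatin, averaged 1.73 ± 0.68 CPM in APP/E4 and 1.30 ± 0.87 CPM in APP/E3, Clec7a, a phagocytic receptor, 1.56 ± 0.45 CPM in APP/E4 and 0.909 ± 0.391 CPM in APP/E3, and the integrin gene Itgax 1.34 ± 0.29 CPM in APP/E4 and 0.882 ± 0.343 CPM in APP/E3 (SD, n = 6 each). Their log2 differences of 0.41 ± 0.48, 0.72 ± 0.37 and 0.52 ± 0.37 did not pass (edgeR adjusted p = 0.778, 0.476 and 0.622). In the 28 tested genes of plaque-associated microglia, 19 were higher and 9 lower, with 0 called and a median log2 difference of 0.06, against a median of 0.00 over all genes. By unadjusted p under 0.05, 2 of them were higher, Gpnmb (1.05 ± 0.38) and Lgals3bp (0.44 ± 0.22). Medians of the same list were 0.23 in ND females with 3 called (0.961% of all genes), 0.28 in HFD males with 1 called (0.224% of all genes) and 0.38 in HFD females with 7 called (0.605% of all genes), all higher in APP/E4. In ND males the median was 0.03 without APP/E4 ND male 6, 0.04 without APP/E3 ND male 1 and 0.10 without APP/E3 ND male 2. No member of this list was called for the difference between ND males and the other 3 pairs of groups. Homeostatic microglial genes were lower in 15 of 20 cases (median -0.08, 0 called, with -0.04 without APP/E4 ND male 3 and -0.05 without APP/E3 ND male 4), and the Tyrobp network in 26 of 45 (median -0.04, 0 called; 0.01 without APP/E3 ND male 4).

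Gfap, the astrocyte filament, stood at 211, 215, 199, 168, 144 and 209 CPM in APP/E4 ND males 1 to 6, against 118, 88.0, 109, 115, 176 and 116 CPM in APP/E3 ND males 1 to 6. Most APP/E4 libraries were higher, but APP/E3 ND male 5 lay within their range and Gfap did not pass (0.63 ± 0.22, edgeR adjusted p = 0.249). In a fit to the male libraries alone it did (0.63 ± 0.14, edgeR adjusted p = 0.0443). Of 21 tested genes of reactive astrocytes 16 were higher, with a median of 0.17, and Serpina3n was the single call. Without APP/E4 ND male 6 the median was 0.08, with 13 of 21 higher, and without APP/E4 ND male 1 it was 0.26. Genes of astrocyte identity were lower in 16 of 20 cases (median -0.11, 0 called; -0.06 without APP/E3 ND male 3), with Aldoc, a glycolytic enzyme of astrocytes, at medians of 755 CPM in APP/E4 and 893 CPM in APP/E3 (-0.27 ± 0.08, edgeR adjusted p = 0.169).

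For myelin, 20 of the 21 tested genes had positive differences (median 0.36), and 0 were called. Mag, a myelin glycoprotein gene, had medians of 152 CPM in APP/E4 and 114 CPM in APP/E3 (0.50 ± 0.24, edgeR adjusted p = 0.439). Their summed level was between 3918 and 5821 CPM in APP/E4 and between 2683 and 4521 CPM in APP/E3, lowest in APP/E3 ND males 3 and 4. Without APP/E3 ND males 2, 3 and 4, which were also low in striatal transcripts, the median was 0.16. Among interferon response genes, 27 of 33 had positive differences (median 0.22, 0 called), with Gbp2, a guanylate binding protein gene, at medians of 4.90 CPM in APP/E4 and 3.13 CPM in APP/E3 (0.54 ± 0.20, edgeR adjusted p = 0.281). Excitatory neuron and cortical layer genes were lower in 13 of 21 cases (median -0.22, 0 called; -0.13 without APP/E3 ND male 1), among them Camk2a, a synaptic kinase gene, at medians of 3116 CPM in APP/E4 and 4033 CPM in APP/E3 (-0.43 ± 0.14, edgeR adjusted p = 0.224).

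All 18 tested striatal genes were higher (median 0.48, 0 called). The median was 0.27 without APP/E3 ND male 4, 0.29 without APP/E3 ND male 2, 0.31 without APP/E4 ND male 4 and 0.82 without APP/E3 ND male 6, and without APP/E3 ND males 2, 3 and 4 together it was -0.25. The striatal dopamine receptor gene Drd2 lay between 19.6 and 58.5 CPM in APP/E4 and between 1.55 and 53.7 CPM in APP/E3. All 9 tested blood cell genes were lower (median -0.74, 0 called): the granulocyte gene S100a8 had a median of 0.287 CPM in APP/E4 and of 0.551 CPM in APP/E3, with 7.08 CPM in APP/E3 ND male 1. Without that library 6 of the 9 blood cell genes were higher and the median was 0.14. The part of these tissue differences in the neuron, myelin and glial lists was not tested. Cholesterol synthesis, lipoprotein handling, oxidative phosphorylation, protein folding, APP processing, Alzheimer risk and receptor genes had medians between -0.05 and 0.04 with 0 called, and the 75 cytosolic ribosome genes a median of -0.05 with Rpl28 called.

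**Figure D4:**
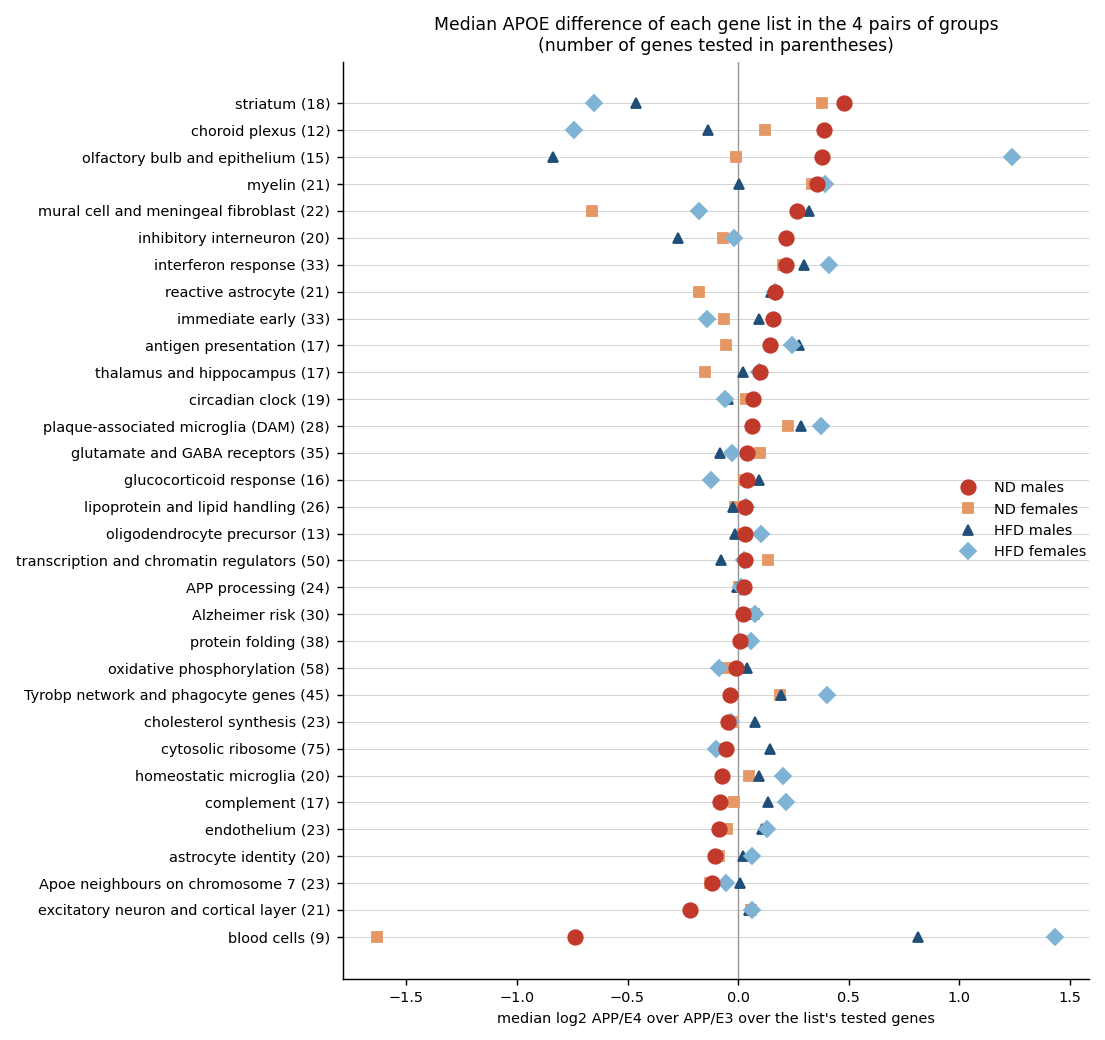
Median log2 difference of APP/E4 over APP/E3 (horizontal axis) over the tested genes of 32 lists (rows, number tested in parentheses), with red circles for ND males and other symbols for ND females, HFD males and HFD females. In ND males the striatal list lies at 0.48, blood cells at -0.74 (0.14 without APP/E3 ND male 1) and plaque-associated microglia at 0.06.

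The same genotype difference was measured in 3 other pairs of groups that share no animal with the ND males. In all 4 pairs APOE goes with the targeted replacement line. A same direction in several pairs therefore cannot tell APOE from any other difference between the lines, which was not tested. The APOE difference named in the text is that between the genotype groups. EdgeR called 34 genes in HFD males (0.224%), of which 26 were higher in APP/E4 (0.171%) and 8 lower (0.0526%). In ND females it called 146 (0.961%), 66 higher (0.434%) and 80 lower (0.526%), and in HFD females 92 (0.605%), 56 higher (0.369%) and 36 lower (0.237%). In HFD males 61 of the 61 ND male calls had the same direction, against 50.7% of all genes tested. The 4 Y-linked genes have next to no reads in females and are left out there. In ND females 55 of the other 57 calls had the same direction, against 67.0% of all genes, and in HFD females 48 of 57, against 56.5%. With the olfactory epithelium transcripts left out as well, 44 of 45 had the same direction in each female pair. Genes called in both with the same direction numbered 23 for HFD males (37.7% of the ND male calls and 67.6% of the HFD male calls), 20 for ND females (32.8% and 13.7%) and 20 for HFD females (32.8% and 21.7%). Called in all 4 pairs of groups were 15 genes: Serpina3h, Serpina3m, Serpina3n, Ptprh, Eps8l1, Oscar, D630041G03Rik, Fyn, Mfn2 and Fbxo5 as higher, and Gm20186, Ighg2c, Rdh13, Pon2 and Tsr2 as lower. Serpina3n averaged 83.1 CPM in APP/E4 HFD males and 20.1 CPM in APP/E3 HFD males, 112 CPM in APP/E4 ND females and 23.2 CPM in APP/E3 ND females, and 108 CPM in APP/E4 HFD females and 16.9 CPM in APP/E3 HFD females. Fyn differed by 0.61 in HFD males, 0.67 in ND females and 0.92 in HFD females on the log2 scale.

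In none of the other 3 pairs of groups were 30 of the 61 genes called. These were the 12 olfactory epithelium transcripts, Umad1, Inpp5k and Spty2d1, and 15 of the 22 calls that ended without at least 1 library. A call in one pair and not in another does not show a difference, so the differences themselves were tested. For ND males minus HFD males edgeR called 0 genes, with 702 at an unadjusted p under 0.05, and DESeq2 and limma voom called 0 as well. For ND males minus the mean of the other 3 pairs edgeR called Hccs alone (0.76 ± 0.10, adjusted p = 3.1e-06), with 754 genes at an unadjusted p under 0.05. The Y-linked genes, with next to no reads in females, could not be assessed for this difference. DESeq2 called 2 genes for this difference, Hccs and Sec14l3.

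**Figure D5:**
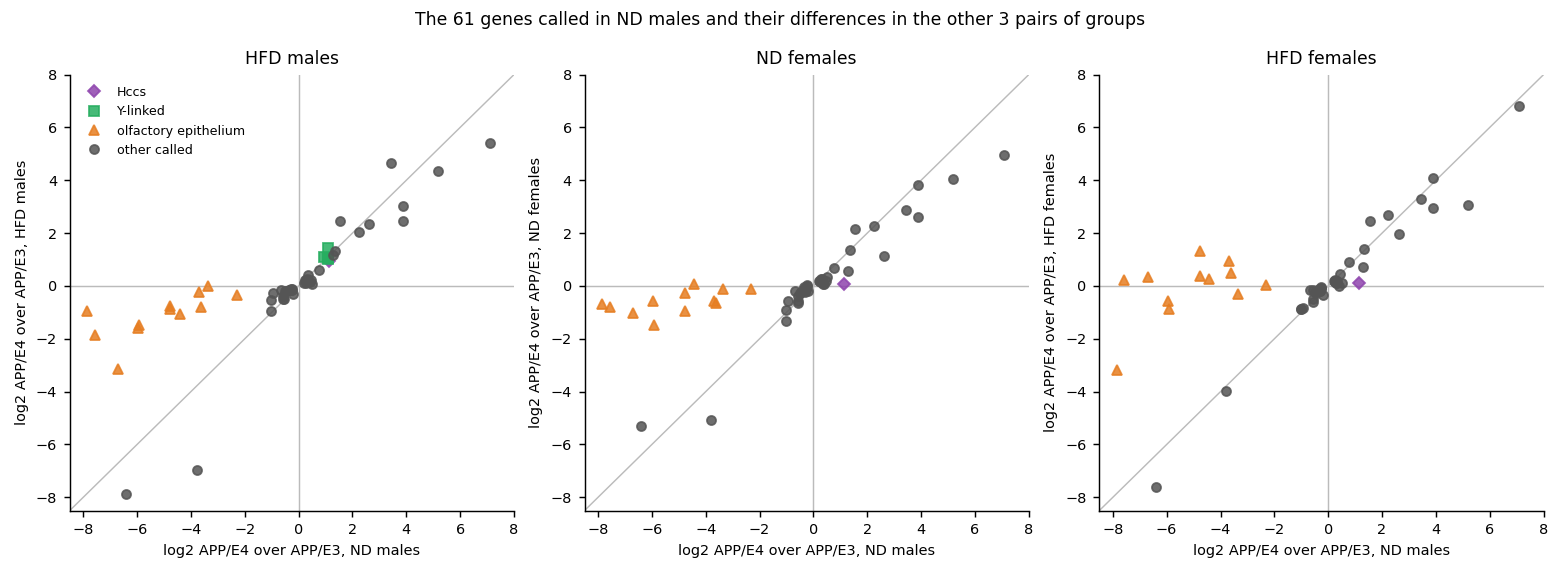
Log2 difference of APP/E4 over APP/E3 in ND males (horizontal axes) against that in HFD males, ND females and HFD females (vertical axes) for the 61 called genes, with the line of equality. Y-linked genes (green squares) appear in the male panel only, Hccs (purple) lies near 0 in females, and the olfactory epithelium transcripts (orange) lie closer to 0 in the other pairs than in ND males.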

How the data were processed

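Frontal cortex RNA of 52 mice was sequenced as 1 library per animal, and 12 libraries form the comparison described. The deposited values are raw counts per gene made by the authors. The submitters' processing notes list Subread, featureCounts, limma, edgeR 3.14.0 and the genome build mm9, and the handling of strand and of reads with several matches is not given in the sources used here. The table held 15692 genes, of which 24 had symbols turned into dates that were restored. Of these, 15448 gene IDs matched a RefSeq table of GRCm38.p6, used for names, chromosomes, neighbours and start regions, with no coordinate of the files converted.

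A filter on low counts (filterByExpr) removed 497 genes and left 15195. The counts of all 52 libraries were scaled by TMM (0.968 to 1.055 in ND males) and fitted with 8 group means by edgeR's robust quasi-likelihood test (edgeR 4.0.16, R 4.3.3). P-values were adjusted by Benjamini-Hochberg over all genes tested, and genes under 0.05 were called. Log2 differences are APP/E4 minus APP/E3 as estimated by the fit. The SE given with them is the absolute log2 difference divided by the square root of the test's F statistic. It is unreliable for very small differences. Levels are counts divided by the library total, and overlap of groups was judged on TMM-scaled log2 values with a prior count of 2. Intervals of pooled counts are exact and cover counting error only. DESeq2 1.42.0 and limma 3.58.1 were run as alternatives, and the scripts were tested on simulated data.

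The genes named were the 12 calls with the smallest p in each direction that have a full gene symbol, the 6 calls with the largest difference at a group mean of at least 1 CPM, called members of the lists, the Serpina3 cluster, Apoe, App, Prnp, Trem2, Tyrobp, Cst7, Clec7a, Itgax and Gfap. All other genes, among them the remaining calls and the list members that were not called, were named after their values were seen. One gene that the rule names is not reported here. The members and lists were chosen with earlier results of these data known. Among 30 pairs of libraries within groups, the chi-square per gene was at least 4.84, so none was counted as a duplicate.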

Additional observations from a re-analysis of the deposited data

Results flagged for a closer look

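In groups of 6 libraries, a library was singled out by its gap to the nearest other, divided by the range of the group. Gap and range were taken on the scaled log2 values, and the share had to exceed Dixon's critical value at the 0.05 level. The levels printed are CPM, on which the shares differ and other libraries could stand out. For normally distributed values chance exceeds it in about that share of groups. Serpina3m had 0.114 CPM in APP/E3 ND male 6 and 0 in the other APP/E3 ND males, and Gm20186 had 0.0948 CPM in APP/E4 ND male 4 and 0 in the other APP/E4 ND males, in each case 1 count. Such a group meets the rule by construction, so that share does not apply to these genes. Eps8l1 was high at 0.667 CPM in APP/E3 ND male 3, Rdh13 at 42.7 CPM in APP/E3 ND male 4, and Rpl28 at 6.49 CPM in APP/E3 ND male 2. Oscar was low at 0.457 CPM in APP/E4 ND male 2, and Ddx3y at 59.0 CPM in APP/E3 ND male 2. Bpifb4 was high at 221 CPM in APP/E3 ND male 3, the library with the highest sum of olfactory epithelium transcripts.

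The APOE difference of Hccs was larger in ND males than in ND females by 1.06 on the log2 scale, and larger than the mean of the other 3 pairs of groups by 0.76, both called by edgeR. HFD males shared the difference (0.96, called), and ND males exceeded them by 0.18, which was not called.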

How the results depend on the processing

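The count of 61 calls was 59 with DESeq2 size factors, 79 without a filter, 45 with limma voom, 61 with title style as a term and 56 in male libraries alone. It was 108 with DESeq2 (49 higher and 59 lower) and 23 in ND male libraries alone. ND males whose titles lack a sex letter, fitted alone, gave 23, and those whose titles carry one, compared in a fit to all libraries, gave 18. The count was 32 without APP/E3 ND males 3 and 5, and 21 without APP/E3 ND males 2, 3 and 4. The last 2 settings, and one without female libraries low in Csl (73), were chosen after seeing the data. Leaving out each library gave 31 to 105, with the ends reached without APP/E3 ND male 3 and without APP/E4 ND male 6. Differences between pairs of groups gave 1 call by sex and 0 by diet under every alternative run, also in each leave-one-out fit. Against the mean of the other 3 pairs there was 1 call under each, except 2 with DESeq2. Among 1169 combinations of a named gene and an alternative, 1079 kept direction and side of the threshold, 87 were no longer called, 1 became called (Gfap) and 2 reversed: without APP/E3 ND males 3 and 5, Cyp2g1 was at 0.70 and Cyp2a5 at 0.58. Of the 50 named genes tested, 29 were called, and an uncalled gene counted as kept when it stayed uncalled in its direction. Combinations in which a gene had no test result are left out. No paired analysis was possible because the replicate numbers follow accession order and the labels give no shared number. Genes with levels near 3 counts per library are limited by depth.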
